A study of Mus musculus with 7 samples.

Results

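The difference between 30 h and 8 h of antigen receptor stimulation was read from 2 of the 7 RNA sequencing libraries of this series: anti-IgM at 30 h and anti-IgM at 8 h, 1 library each. Both came from primary B cells of mice labelled wild type and C57BL/6, the genetic background that all 7 libraries share. The other libraries are B cells with anti-IgM and BAFF together at 30 h and 8 h, BAFF alone at 30 h and 8 h, and unstimulated cells at 0 h, again 1 library each. Anti-IgM is an antibody that cross-links the membrane IgM of the B cell receptor, and BAFF is the B cell activating factor of the TNF family. The labels used here give no dose, organ, sort or number of mice. Because unstimulated cells were sampled at 0 h alone, time in culture and time with anti-IgM cannot be told apart. Of 23212 gene names in the merged transcript set, 10053 could be compared between the 30 h and the 8 h library.

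Cross-linking of the B cell receptor activates the kinases LYN, SYK and BTK, calcium and NF-kappaB signalling, and within hours the transcription factor MYC. A resting B cell then grows, making ribosomes, lipids and nucleotides, before it copies its DNA and divides. Genes for DNA copying are known targets of E2F factors, and genes for chromosome segregation are known targets of the MuvB complex, which binds a cell cycle homology element near the start of transcription. Many genes for making ribosomes are known MYC targets with an E box in their promoter.

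Promoters of the largest list differences described below are shown first, because most members of these lists differed in 1 direction. Sequences cover 250 bases before to 50 bases after the gene start and are from RefSeq on GRCm38.p6, the assembly that mm10 is built on. Of each of 3 lists, the 2 members with the largest difference whose promoter holds the motif are printed, a choice made after the motifs were counted. Capitals mark every match, on either strand, to 1 of 7 motifs: the CCAAT box, the letters TTTGAA or their variant form TTCGAA for the cell cycle homology element, TTTCCCGC or its variants TTTGGCGC and also GGCGGGAA for E2F (the first and the last can overlap), and the E box CACGTG. No matches overlap in the 6 sequences shown.
Kif11, chr19:37376132-37376431, plus strand: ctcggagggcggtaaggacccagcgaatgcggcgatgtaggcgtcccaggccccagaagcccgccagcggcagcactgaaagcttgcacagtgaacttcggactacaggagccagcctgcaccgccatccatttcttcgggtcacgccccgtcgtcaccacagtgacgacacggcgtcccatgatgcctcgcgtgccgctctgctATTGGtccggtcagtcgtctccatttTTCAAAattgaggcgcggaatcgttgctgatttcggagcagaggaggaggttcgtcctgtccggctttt
Mki67, chr7:135716330-135716629, minus strand: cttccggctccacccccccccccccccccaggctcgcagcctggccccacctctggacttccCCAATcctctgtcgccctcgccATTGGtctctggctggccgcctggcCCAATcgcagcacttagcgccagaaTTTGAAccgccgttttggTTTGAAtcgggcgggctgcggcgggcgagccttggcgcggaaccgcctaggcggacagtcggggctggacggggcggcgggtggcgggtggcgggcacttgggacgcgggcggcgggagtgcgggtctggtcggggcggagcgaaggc
Cdc6, chr11:98907901-98908200, plus strand: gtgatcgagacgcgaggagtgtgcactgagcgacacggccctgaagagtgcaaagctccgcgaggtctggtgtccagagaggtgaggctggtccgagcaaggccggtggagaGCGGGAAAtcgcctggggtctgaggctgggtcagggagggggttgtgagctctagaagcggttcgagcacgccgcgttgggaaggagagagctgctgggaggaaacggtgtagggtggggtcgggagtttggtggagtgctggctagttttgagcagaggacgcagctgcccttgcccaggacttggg
Pola1, chrX:93632106-93632405, minus strand: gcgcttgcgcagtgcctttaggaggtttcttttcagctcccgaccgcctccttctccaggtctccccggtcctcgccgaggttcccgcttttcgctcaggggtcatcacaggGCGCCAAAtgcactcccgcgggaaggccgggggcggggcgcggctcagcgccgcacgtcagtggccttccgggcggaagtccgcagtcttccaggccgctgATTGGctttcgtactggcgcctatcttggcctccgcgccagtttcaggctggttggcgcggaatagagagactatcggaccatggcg
Utp18, chr11:93885717-93886016, minus strand: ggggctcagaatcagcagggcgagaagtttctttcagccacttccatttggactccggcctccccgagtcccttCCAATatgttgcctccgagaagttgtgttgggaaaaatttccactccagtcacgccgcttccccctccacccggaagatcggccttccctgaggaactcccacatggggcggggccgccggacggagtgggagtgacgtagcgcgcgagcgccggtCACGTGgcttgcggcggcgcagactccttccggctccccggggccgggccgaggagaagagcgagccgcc
Utp20, chr10:88826765-88827064, minus strand: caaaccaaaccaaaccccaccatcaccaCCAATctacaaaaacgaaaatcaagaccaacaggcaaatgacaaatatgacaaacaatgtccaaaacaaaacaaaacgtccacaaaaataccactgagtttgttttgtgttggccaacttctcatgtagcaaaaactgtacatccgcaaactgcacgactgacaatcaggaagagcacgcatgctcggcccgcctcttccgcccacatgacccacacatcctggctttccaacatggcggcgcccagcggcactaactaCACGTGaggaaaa

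Kif11 and Mki67 belong to the mitosis list and hold a CCAAT box with a cell cycle homology element. In Kif11 the CCAAT match began 45 bases and the element 19 bases before the start. Mki67 held 3 CCAAT matches and 2 elements. Cdc6 and Pola1 belong to the DNA replication list, and each has its E2F match beginning 138 bases before the start. Pola1, Utp18 and Utp20 also hold a CCAAT match. Utp18 and Utp20 belong to the ribosome biogenesis list, and their E box begins 20 bases before the start in Utp18 and at base 38 after it in Utp20. The members with the largest difference did not always hold the motif: Birc5 of the mitosis list, Cdc45 of the replication list, and Pwp2, Nop16 and Ebna1bp2 of the ribosome biogenesis list had none in this window.

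Of the 10053 genes compared, 8163 had a promoter in the table. A CCAAT box together with a cell cycle homology element stood in 34 of 58 mitosis promoters (58.6%), against 6.10% of the promoters of all genes compared and 7.70% of all 27025 promoters. An E2F motif stood in 13 of 35 DNA replication promoters (37.1%), against 6.82% of those of all genes compared and 3.31% of all promoters. The E box stood in 12 of 55 ribosome biogenesis promoters (21.8%), against 10.96% of those of all genes compared and 7.24% of all promoters. Other lists held these motifs too. The CCAAT box with the element was in 33.3% of chromatin copying, 19.05% of G1 and S phase control and 14.3% of DNA replication promoters. It was in 0 of 59 ribosomal protein promoters. The E2F motif was in 34.8% of DNA repair and 33.3% of chromatin copying promoters. The E box was in 38.1% of lysosome promoters, a list with a median difference of 0.36. It was in 30.8% of aminoacyl-tRNA synthetase promoters, a list with a median of -0.58. A match describes the letters in the window and is not a measured binding site.

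**Figure D1:**
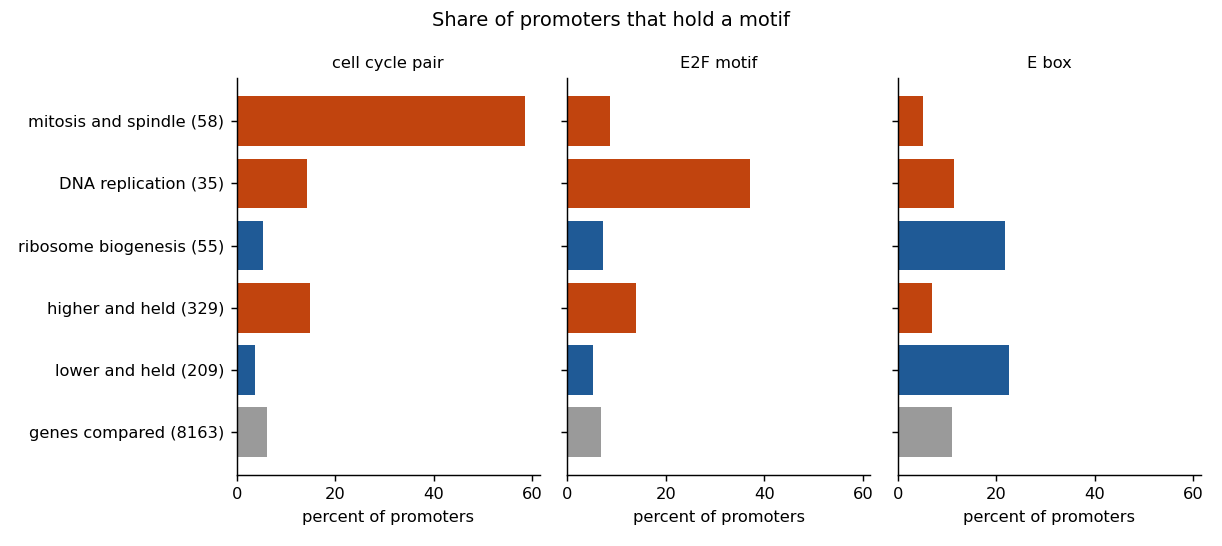
Each bar is the percentage of promoters with at least 1 match on either strand, with the number of promoters in brackets; the cell cycle pair is a CCAAT box with a cell cycle homology element in the same window. The pair is in 58.6% of mitosis promoters, the E2F motif in 37.1% of DNA replication promoters and the E box in 22.5% of promoters of genes that were lower at 30 h by both measures, against 6.10%, 6.82% and 10.96% of the genes compared.

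The deposited values are FPKM (fragments per kilobase of transcript per 1000000 mapped fragments) of transcripts that were assembled separately in each library, summed here over the transcripts of a gene with at least 300 bases. The mapped reads recovered from the values, in units of 1000000, were 23.1 at 30 h and 28.5 at 8 h of anti-IgM, and 18.7 to 24.0 in the other 5 libraries. Pieces under 300 bases, which were left out, made up 71.0% of the summed FPKM at 30 h and 71.1% at 8 h. Differences are log2(FPKM + 1) at 30 h minus the same at 8 h, a scale that understates the change of genes near 1 FPKM. A gene was counted as higher or lower when it was assembled in both libraries, reached 1 FPKM in 1 of them, differed by at least 1 and had FPKM intervals that did not overlap. The intervals, combined over the transcripts of a gene, cover error within 1 library and no variation between cultures or mice. With 1 library per condition no p-value is possible, and a counted difference is one between these 2 libraries. A gene was called held when a second measure, the reads of all assembled pieces over its exons per exon length and mapped reads, differed in the same direction by 1 or more too. The second measure is computed from the same FPKM values and is not independent, but it is less moved by how pieces were assembled. It takes pieces on either strand and can credit 1 piece to several genes. Antisense or neighbouring transcripts can therefore move it.

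At 30 h 795 genes were counted higher than at 8 h (7.91% of those compared) and 533 lower (5.3%). By both measures 410 were higher (4.08%) and 252 lower (2.51%). The median over all genes was -0.02. Rescaling each library to the same sum of FPKM moved that median to -0.17 and turned the split of counts to 692 higher and 869 lower, so that 44.3% of the counted genes were higher in place of 59.9%. List medians below are therefore read against the median of all genes. List counts are read against the 7.91% higher and 5.3% lower of all genes compared.

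**Figure D2:**
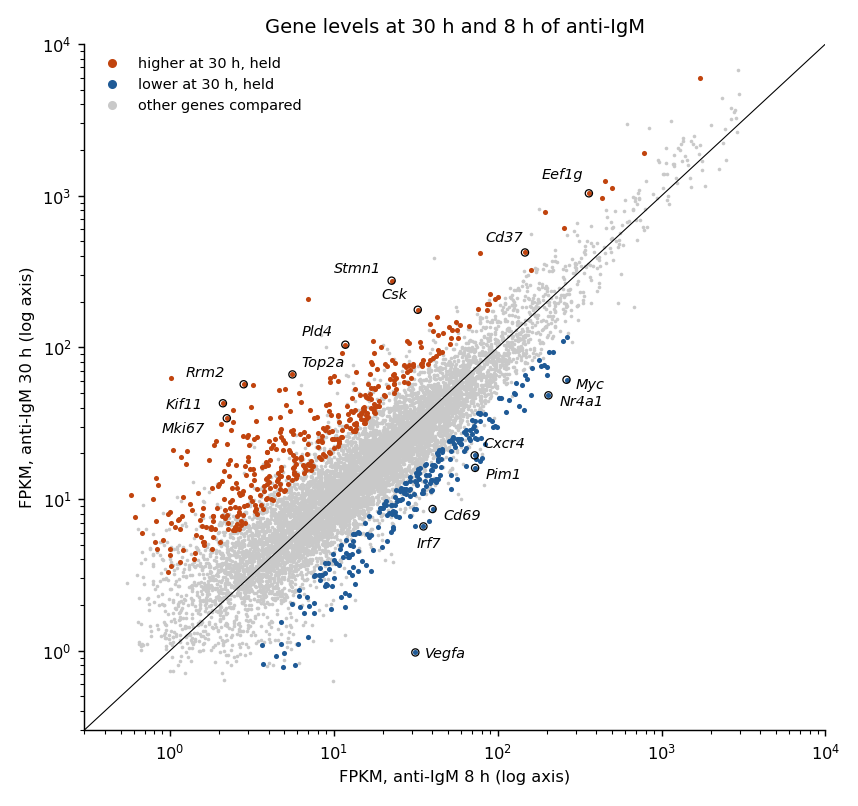
Each point is 1 of 10053 genes, with its FPKM at 8 h on the x axis and at 30 h on the y axis, both on log scales; coloured points are the 410 higher and 252 lower genes that both measures show. Kif11, Rrm2 and Mki67 lie far above the line of equal values, and Vegfa, Myc, Pim1 and Cd69 below it.

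The B cell label was checked first. Of 11 B cell markers, 10 were assembled in both libraries, each at 1 FPKM or more, and Cd79a, which encodes a receptor signalling chain, was assembled in neither. Their summed FPKM was 2285 at 30 h, against 1184 at 8 h. Cd79b, which did not hold over exons, was the largest part of that gap, and without it the sums were 1469 at 30 h and 1006 at 8 h. Neutrophil markers were not assembled in either library. Of 19 macrophage markers, 14 reached 1 FPKM at 30 h and 9 at 8 h, with a summed FPKM of 176 at 30 h, against 79.5 at 8 h. Of 16 T cell markers, 5 and 4 reached 1 FPKM, with sums of 126 at 30 h and 68.0 at 8 h. Cd3d, Cd3e and Thy1 were assembled in neither, while the T cell receptor signalling genes Cd3g and Zap70 were assembled at 30 h only, at 1.62 and 2.39 FPKM. The kinase gene Lck made up most of the sum (93.8 at 30 h and 45.8 at 8 h), and without it the sums were 31.7 at 30 h and 22.2 at 8 h. In bulk RNA a change in the share of a cell type and a change in RNA per cell cannot be told apart.

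Genes of chromosome segregation had the highest median of the 41 gene lists described here. Of 65 mitosis and spindle genes compared, 46 were counted higher at 30 h and 0 lower, 45 of the 46 by both measures, against 7.91% of all genes compared. The list median was 1.84, and 62 of 65 members lay above 0. Kif11, the motor that pushes spindle poles apart, was at 42.8 FPKM at 30 h, against 2.10 at 8 h, a difference of 3.82 for which the 2 intervals allow 3.65 to 4.001. Its 0 h level was 3.38 FPKM, so the 30 h library was the highest of the 3.

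The other leading members of the mitosis list cover kinases, motors and chromosome structure. Cdk1, the mitotic kinase, was at 40.5 FPKM at 30 h, against 3.13 at 8 h. Its cyclin partners were named after their values were seen: Ccna2 had 32.9 at 30 h, against 3.36 at 8 h, and Ccnb1 had 13.3, against 2.08. Birc5, the survivin subunit of the chromosomal passenger complex, was at 38.5 at 30 h, against 2.44 at 8 h. Aurkb, the kinase of that complex and also named after its value was seen, was at 28.3, against 5.64. Top2a, which untangles chromosomes, reached 66.3 FPKM at 30 h, against 5.59 at 8 h. Mki67, which coats mitotic chromosomes and is used as a marker of dividing cells, had 34.1, against 2.22. The 5 members named by rule differed by 3.33 (Cdk1) to 3.82 (Kif11), and in none of them did the 2 intervals overlap. Stmn1, a microtubule regulator outside the list, had 275 FPKM at 30 h, against 22.5 at 8 h and 41.0 at 0 h.

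DNA replication genes had the second highest median. Of 44 compared, 29 were counted higher at 30 h and 0 lower, 28 of the 29 by both measures, against 7.91% of all genes compared. The list median was 1.47, and 42 of 44 members lay above 0. Cdc6, which loads the replicative helicase onto origins, was at 21.2 FPKM at 30 h, against 1.04 at 8 h (difference 3.44, 3.06 to 3.89). Cdc45 and Gins2, which complete that helicase, were at 28.7 and 41.4 at 30 h, against 2.37 and 5.08 at 8 h. Both have an expressed gene within 1000 bases, whose reads can join theirs. Pola1, the catalytic subunit of the priming polymerase, was at 34.9 at 30 h, against 4.71 at 8 h, and Lig1, the ligase that seals replicated fragments, at 62.8, against 9.42. Pola1 differed by 2.65 in FPKM and by 1.60 over exons.

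Not all replication genes started low. Mcm5 and Mcm6, helicase subunits named after their values were seen, were at 109 and 129 FPKM at 30 h, against 33.7 and 40.4 at 8 h. In the order of time Mcm6 stood at 21.3 at 0 h, 40.4 at 8 h and 129 at 30 h. Pcna, the sliding clamp and likewise named afterwards, was at 78.2, 171 and 312 FPKM at 0, 8 and 30 h, and its 30 h minus 8 h difference of 0.87 was not counted. Cdc6, Cdc45 and Pola1 in contrast had 8 h levels of 1.04, 2.37 and 4.71 FPKM, near their 0 h levels of 1.21, 3.17 and 4.50.

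**Figure D3:**
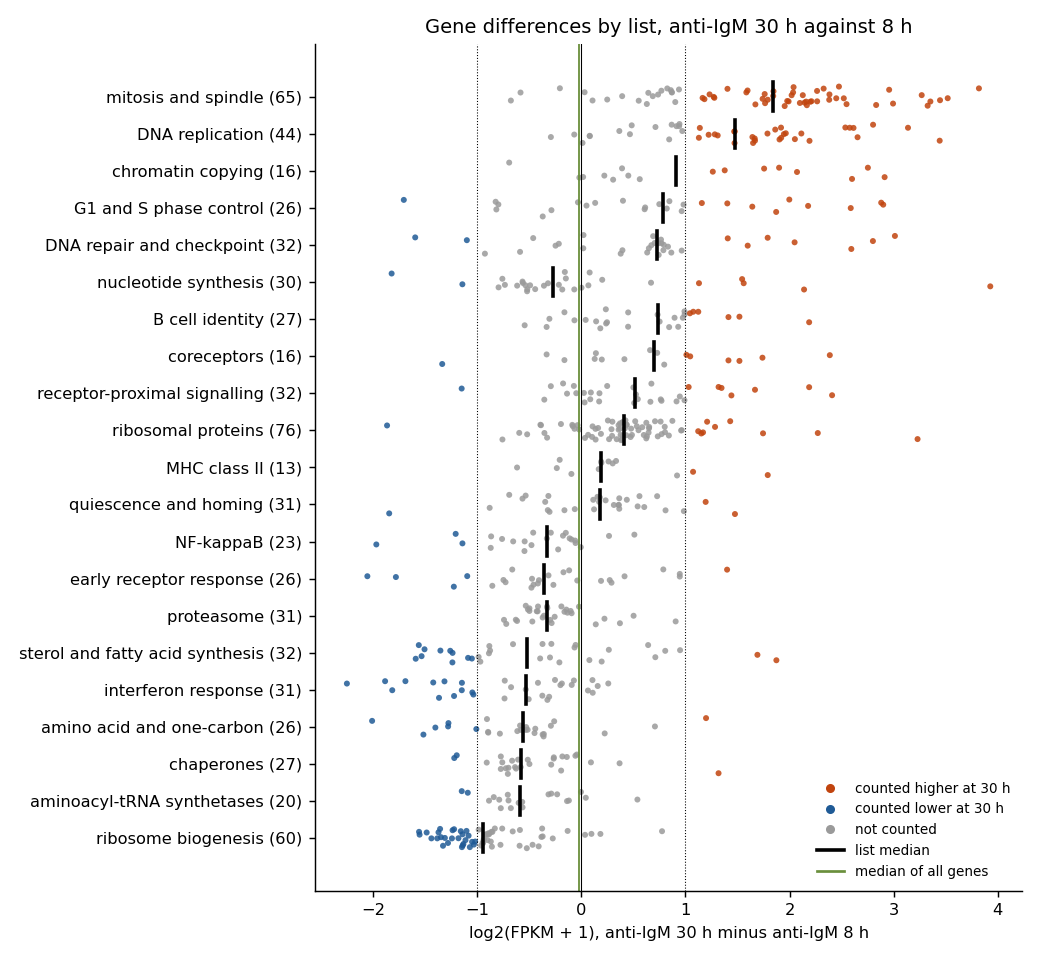
Each point is a gene, placed by log2(FPKM + 1) at 30 h minus 8 h of anti-IgM, with 1 row per list and the number compared in brackets; black bars are list medians and the green line the median of all genes. The mitosis and DNA replication rows lie mostly beyond 1, and the ribosome biogenesis row centres on -0.95.

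Deoxynucleotide and ribonucleotide synthesis did not move as 1 group. Rrm2, the regulated subunit of ribonucleotide reductase, was at 57.1 FPKM at 30 h, against 2.82 at 8 h, the second largest upward difference among the genes that the naming rule admits (3.93, 3.71 to 4.17). Its partner Rrm1 was at 55.9, against 18.5. Dut, which removes dUTP, and the salvage kinase gene Dck were also counted higher, by 1.56 and 1.13. Impdh1, of guanine nucleotide synthesis, was lower, with 11.7 at 30 h, against 26.97 at 8 h. Over the 30 members compared 5 were higher and 2 lower, against 7.91% and 5.3% of all genes compared, so the share lower was near that of all genes. By both measures 5 were higher and 1 lower. The median was -0.27, with 20 of 30 below 0. Tyms, thymidylate synthase, was counted lower by FPKM (-1.82) but was 0.99 higher over exons, and has no settled direction here.

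Cyclin E and E2F genes, which act at the start of S phase, were counted higher at 30 h, and cyclin D2 was not counted. Of 26 genes of G1 and S phase control, 9 were counted higher at 30 h (8 by both measures) and 1 lower. The shares over all genes compared were 7.91% and 5.3%. The list median was 0.79. Ccne1, cyclin E1, was at 23.01 FPKM at 30 h, against 2.22 at 8 h, a difference of 2.90. E2f1, an activating E2F, was at 25.6, against 3.42, and E2f8, a repressing E2F, at 10.6, against 0.575. E2f2 followed another course, with 24.3 FPKM at 0 h, 2.86 at 8 h and 16.5 at 30 h. The CDK inhibitor gene Cdkn2d had the same shape, with 27.1, 3.22 and 15.9 FPKM.

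Ccnd2, cyclin D2, was at 66.2 FPKM at 30 h, against 42.9 at 8 h, a difference of 0.61 that was not counted. Ccnd3, cyclin D3, was assembled at 30 h only, with 46.9 FPKM, so it has no difference by FPKM; over its exons it stood at 31.9 at 30 h, against 4.25 at 8 h, in reads per kilobase per 1000000. It lies next to Bysl. Because the exon measure counts only assembled pieces, no difference is drawn for Ccnd3. Cdkn1a, which encodes the CDK inhibitor p21, was the 1 member counted lower, with 3.89 FPKM at 30 h, against 14.9 at 8 h.

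DNA repair and chromatin copying genes had medians of 0.72 and 0.91. Of 32 repair and checkpoint genes 7 were counted higher, all 7 by both measures, against 7.91% of all genes compared. Lower were 2, neither by both measures, a share near the 5.3% of all genes. Clspn, which relays replication stress to a checkpoint kinase, was at 13.7 FPKM at 30 h, against 0.823 at 8 h. Rad51ap1, of strand exchange, was at 18.0 at 30 h, against 1.73 at 8 h. Of 16 chromatin copying genes 8 were higher and 0 lower. Uhrf1, which recruits the maintenance methyltransferase, was at 91.3 FPKM at 30 h, against 11.3 at 8 h, and the histone chaperone genes Chaf1a and Asf1b at 25.8 and 37.96, against 2.97 and 5.42.

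Genes for making ribosomes had the lowest median of the 41 lists. Of 60 compared, 27 were counted lower at 30 h and 0 higher, 25 of the 27 by both measures, against 5.3% of all genes compared. The median was -0.95, and 56 of 60 lay below 0. Pwp2, of the small subunit processome, was at 14.5 FPKM at 30 h, against 44.5 at 8 h, a difference of -1.56 (-1.68 to -1.44). Nop16, a nucleolar protein, was at 37.5, against 112, and Ebna1bp2, of large subunit processing, at 25.5, against 73.1. Utp18 and Utp20, also of the processome, differed by -1.44 and -1.38. Against unstimulated cells the list median was 1.51 at 8 h minus 0 h and 0.58 at 30 h minus 0 h, 2 comparisons that share libraries with the first.

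The abundant nucleolar genes differed by less. Ncl and Npm1, nucleolin and nucleophosmin, named after their values were seen, were at 168 and 1143 FPKM at 30 h, against 254 and 1519 at 8 h, and neither was counted. Urb1, of large subunit assembly and outside the list, had the second largest downward difference of the named genes, with 7.16 at 30 h, against 37.9 at 8 h (-2.25 by FPKM and -1.22 over exons).

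By their median, ribosomal protein genes went the other way. Of 76 compared, 62 lay above 0, with a median of 0.41. Counted higher were 9 and lower 1, against 7.91% and 5.3% of all genes compared. Of the 9, 3 were higher by both measures, a share of the list near the 4.08% of all genes. Rpl3 was at 1908 FPKM at 30 h, against 782 at 8 h, and held. Rps15a was counted lower by FPKM (-1.87) and was higher over exons (1.86). These genes have many processed copies in the genome, so their reads are uncertain. The elongation factor gene Eef1g, whose mRNA is controlled like those of ribosomal proteins, was at 1037 at 30 h, against 359.9 at 8 h.

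Myc itself was at 143 FPKM at 0 h, 263 at 8 h and 61.2 at 30 h, so the 30 h library was the lowest of the 3. The 30 h minus 8 h difference was -2.08 (-2.18 to -1.99), and -1.99 over exons. In the MYC network the gene for the MAX partner and MYC antagonist Mxd4 was higher, with 68.8 FPKM at 30 h, against 13.7 at 8 h, though it has a close neighbour, Haus3. The other 7 network genes compared were not counted.

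Lipid synthesis genes were in part lower at 30 h. Of 32 sterol and fatty acid synthesis genes 10 were counted lower (8 by both measures) and 2 higher, against 5.3% and 7.91% of all genes compared. The list median was -0.53. Hmgcs1, of the mevalonate pathway, was at 49.5 FPKM at 30 h, against 128 at 8 h. Fasn, fatty acid synthase, was at 20.7, against 62.0. The desaturase genes Scd2 and Fads1 were the 2 members that were higher: Scd2 had 77.9 FPKM at 30 h, against 20.5 at 8 h, and Fads1 11.3, against 2.81.

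Of 26 amino acid and one-carbon genes 6 were counted lower, all by both measures, and 1 higher, with a median of -0.56. Over all genes compared 5.3% were lower and 7.91% higher. Slc7a5, the light chain of the large neutral amino acid transporter, was at 21.8 FPKM at 30 h, against 64.1 at 8 h. Shmt2, of mitochondrial one-carbon metabolism, was at 61.8, against 151, and Pycr1, of proline synthesis, at 2.32, against 12.4. Slc7a11, a cystine transporter gene, was the 1 counted higher by FPKM (1.20), and over exons it was lower (-1.12). In the polyamine list of 11, Odc1, the rate-limiting decarboxylase, and Mat2a, which makes S-adenosylmethionine, were counted lower, with differences of -1.17 and -1.29.

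Smaller shifts ran through the lists of protein synthesis, folding and degradation. Of 20 aminoacyl-tRNA synthetases 18 lay below 0 (median -0.58), of 27 chaperones 24 (-0.58) and of 31 proteasome genes 26 (-0.33). Counted lower were only 2, 2 and 0, against 5.3% of all genes compared. Nars, the asparaginyl-tRNA synthetase gene, was at 46.6 FPKM at 30 h, against 104 at 8 h, and Hsph1, a heat shock protein gene, at 25.1, against 59.8. Translation factors had a median of -0.48, glycolysis -0.26 and oxidative phosphorylation 0.11. The glycolysis median turned to 0.05 with the most abundant transcript of each gene, and that of oxidative phosphorylation to -0.04 with rescaling to a common sum. Endoplasmic reticulum genes had a median of -0.01, with none held.

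Of 26 genes known to be induced early by receptor signals 18 lay below 0 at 30 h minus 8 h, with a median of -0.36. Counted lower were 4 and higher 1, against 5.3% and 7.91% of all genes compared. Nr4a1, an orphan nuclear receptor gene used as a reporter of antigen receptor signalling, was at 352 FPKM at 0 h, 204 at 8 h and 48.3 at 30 h. Its difference was -2.06 by FPKM and -1.10 over exons. Dusp5, a MAP kinase phosphatase gene, was at 7.79 at 30 h, against 29.2 at 8 h. Jun was at 3.44, against 9.38, while its relative Jund was counted higher, at 74.6, against 27.6. Egr1 and Fos were not counted, with 45.9 and 2.38 FPKM at 30 h, against 61.6 and 3.69 at 8 h. At 0 h Fos was at 627 FPKM, Egr1 at 264, Jun at 139 and Jund at 98.3, each above its 8 h and 30 h levels. Egr2, at 24.4 at 0 h, lay below both of its later levels. Against unstimulated cells the list median was -1.02 at 8 h minus 0 h and -0.98 at 30 h minus 0 h. Egr2 differed by 0.29 in FPKM and by -0.85 over exons.

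NF-kappaB genes lay below 0 by small amounts: 21 of 23 lay below 0, with a median of -0.33. Counted lower were 3 and higher 0, against 5.3% and 7.91% of all genes compared. Nfkbiz, which encodes a nuclear IkappaB, was at 13.7 FPKM at 30 h, against 56.4 at 8 h. Tnfaip3, the A20 inhibitor gene, was at 22.9, against 54.3, and Nfkb2, the p100 precursor gene, at 66.1, against 147. The subunit genes Rel, Nfkb1 and Relb were not counted, at 114, 151 and 45.6 at 30 h, against 140.0, 189.6 and 63.2 at 8 h, and neither was the inhibitor gene Nfkbia, at 113, against 158. Nfkbie was assembled at 30 h only, at 94.8 FPKM, with no assembled read over its exons at 8 h. A gene listed at 0 can be a failed assembly, so no difference is drawn from it.

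Kinase and surface genes of activation were among the largest downward differences. Pim1 and Pim3, kinases that support growth and survival, were at 16.1 and 11.5 FPKM at 30 h, against 72.8 and 39.8 at 8 h. Cd69, an early activation antigen that keeps lymphocytes in tissue, was at 84.3 at 0 h, 40.0 at 8 h and 8.60 at 30 h. Il2ra, a chain of the IL-2 receptor, was at 13.5 at 30 h, against 43.2 at 8 h. The chemokine gene Ccl4 was lower, with 18.7, against 79.8, and the chemokine gene Ccl22 higher, with 40.8, against 11.99. As a whole the activation surface list had 2 of 21 members counted higher, 3 lower and a median of -0.29. The shares over all genes compared were 7.91% higher and 5.3% lower.

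Vegfa, the vascular growth factor gene, had the largest downward difference of the named genes. It was at 0.975 FPKM at 30 h, against 31.4 at 8 h, -4.04 by FPKM and -2.70 over exons, and was not assembled at 0 h. In the list of hypoxia and AHR genes Ahr, the aryl hydrocarbon receptor gene, and its target Tiparp were counted lower too, with differences of -1.74 and -1.22, and Ddit4 was higher, with 61.3 FPKM at 30 h, against 23.4 at 8 h. The remaining 10 of 14 members were not counted.

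Interferon and stress response genes were among those counted lower at 30 h. Of 31 interferon response genes 12 were counted lower (10 by both measures) and 0 higher, against 5.3% of all genes, and the median was -0.53. Irf7, an interferon-inducible transcription factor gene, was at 6.605 FPKM at 30 h, against 35.2 at 8 h, and Ifit3 and Oasl1, antiviral effectors, at 2.25 and 5.29, against 11.01 and 21.2. Isg15, a ubiquitin-like protein gene, was at 16.2, against 45.2. Of 8 ATF4 stress response genes 4 were lower and 1 higher, against 5.3% and 7.91% of all genes compared. Atf4 itself had 92.6 FPKM at 30 h, against 217 at 8 h, and the 1 counted higher was Ddit4, given above. Of 17 p53 target genes 5 were lower, against 5.3% of all genes compared, and 0 higher, with Cdkn1a, Phlda3 and Aen lower by both measures.

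Most genes that identify B cells had higher FPKM at 30 h than at 8 h. Of 27 B cell identity genes 6 were counted higher (4 by both measures) and 0 lower, against 7.91% and 5.3% of all genes compared. In this list 22 lay above 0, and the median was 0.73. Pax5, the transcription factor that maintains B cell identity, was at 101 FPKM at 0 h, 50.8 at 8 h and 106 at 30 h. Bcl11a, another lineage factor gene, was at 35.6 at 30 h, against 15.8 at 8 h, and Cd37, a tetraspanin gene, at 422, against 147. Cd79b, the other signalling chain of the receptor, was at 816 by FPKM, against 178, but differed by only 0.59 over exons and did not hold. The summed macrophage markers stood higher at 30 h as well, at 176 FPKM at 30 h, against 79.5 at 8 h and 460 at 0 h. Of their 19 genes 5 were not assembled at 30 h, Cd14, Cd163, Fcgr1 and Lyz1 among them, and C1qa, C1qb, C1qc, Cd163, Cd68, Fcgr1, Lyz1, Marco and Mrc1 were not assembled at 8 h. Cd68 goes the other way over exons, at 8.12 at 30 h, against 296 at 8 h, and has the expressed neighbour Eif4a1, whose reads can join it. Without Cd68 the sums were 161 FPKM at 30 h and 79.5 at 8 h. Lyz2, the lysozyme gene of phagocytes, was at 16.8 FPKM at 30 h, against 2.52 at 8 h. The part of these markers in the B cell, coreceptor, class II and lysosome differences was not tested. Of 28 lysosome genes 3 were counted higher, 2 of them by both measures, and 0 lower, a share near the 7.91% of all genes, with a median of 0.36, and Psap, the gene of a lysosomal activator protein precursor, was at 325 FPKM at 30 h, against 159 at 8 h.

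Of 16 coreceptor genes compared, 6 were counted higher, 5 of them by both measures, and 1 lower, with a median of 0.69. Over all genes compared 7.91% were higher and 5.3% lower. Cd22, an inhibitory lectin, was at 353 FPKM at 0 h, 50.8 at 8 h and 137 at 30 h. Fcgr2b, the inhibitory Fc receptor, was at 88.2 at 30 h, against 42.2 at 8 h, and Ceacam1, another receptor with inhibitory motifs, at 13.3, against 3.28. Cd38, a NAD-consuming ectoenzyme, was at 32.7 at 0 h, 10.7 at 8 h and 60.1 at 30 h. The 1 counted lower was Btla, another inhibitory receptor, at 24.5 FPKM at 30 h, against 63.4 at 8 h (-1.34), and it did not hold.

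Of 32 receptor-proximal signalling genes 7 were counted higher (4 by both measures) and 1 lower, against 7.91% and 5.3% of all genes compared. The list median was 0.52. Csk, the kinase that restrains SRC family kinases, was at 156 FPKM at 0 h, 32.5 at 8 h and 177 at 30 h. Bank1, an adaptor of receptor signalling and a B cell marker, was at 77.3 at 30 h, against 30.4 at 8 h. Cblb, a ubiquitin ligase gene, was counted lower by FPKM (-1.15) and differed by 0.07 over exons.

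**Figure D4:**
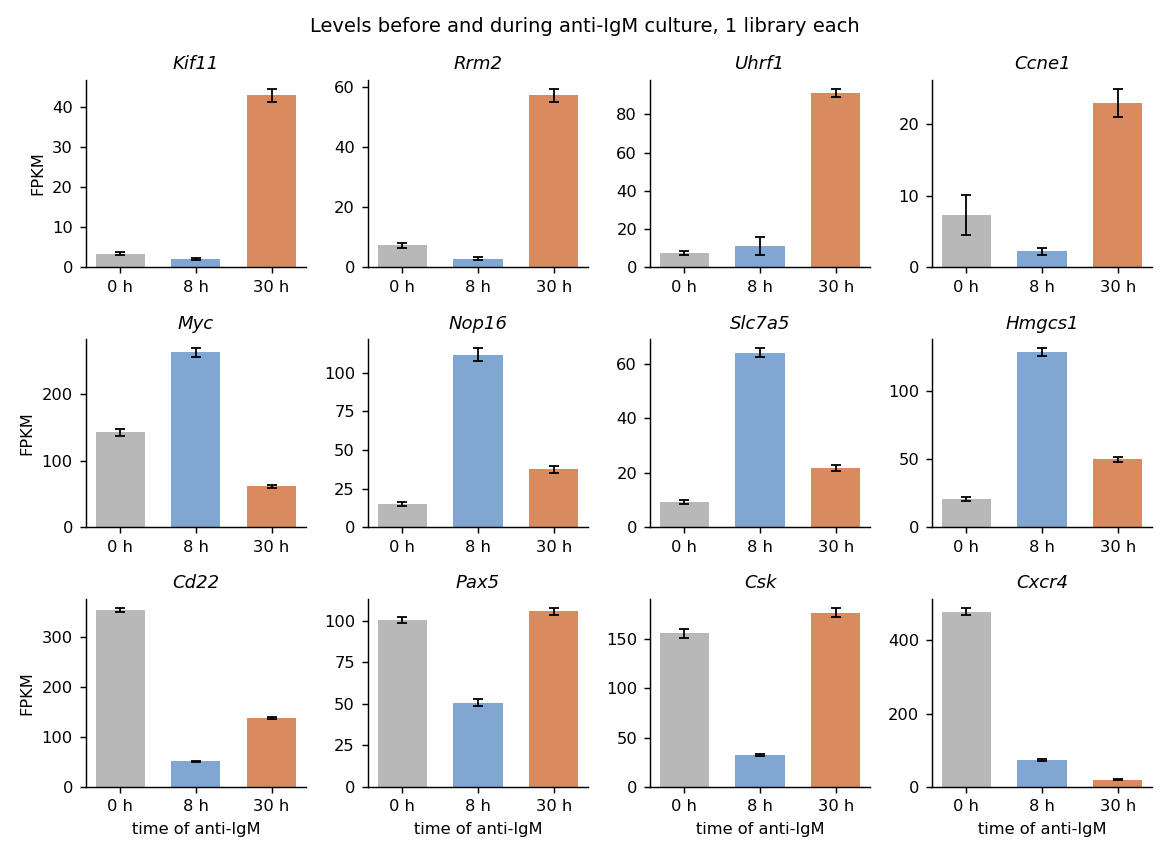
Bars are FPKM at 0 h (unstimulated), 8 h and 30 h of anti-IgM, 1 library each. Error bars combine the deposited FPKM intervals of a gene's transcripts and hold no variation between cultures or mice. Kif11, Rrm2, Uhrf1 and Ccne1 are highest at 30 h, Myc, Nop16, Slc7a5 and Hmgcs1 at 8 h, and Cd22, Pax5 and Csk are lowest at 8 h.

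Antigen presentation, homing and quiescence genes differed little as lists. MHC class II genes had a median of 0.19, with 2 of 13 counted higher, against 7.91% of all genes compared. H2-Oa, a chain of the peptide-loading modulator, was the 1 that held (75.2 FPKM at 30 h, against 21.0 at 8 h). H2-Ab1 and Cd74 were not counted, with 224 and 3257 FPKM at 30 h, against 264 and 2849 at 8 h, and neither was their transactivator gene Ciita, with 15.6, against 13.8. In the quiescence and homing list of 31 the median was 0.18. Cxcr4, the CXCL12 receptor gene, was at 479 at 0 h, 72.3 at 8 h and 19.4 at 30 h. Itgb7, an integrin chain, and Sesn3, a FOXO target, were higher by 1.48 and 1.19. Klf2, S1pr1 and Ccr7 were not counted, with 28.1, 20.8 and 205 FPKM at 30 h, against 18.8, 19.0 and 332 at 8 h.

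Pro-survival genes of the BCL2 family were not counted in either direction. Bcl2l1, which encodes BCL-XL, was at 33.1 FPKM at 30 h, against 50.3 at 8 h, and Mcl1 at 186, against 171. Bcl2a1b was at 164, against 117, and shares sequence with its paralogs, so its reads are uncertain. Bcl2l11, the pro-apoptotic BIM gene, was at 51.7 at 30 h and 52.0 at 8 h, -0.01 apart. Bmf, a BH3-only gene, was counted higher, with 39.6, against 16.9, and so were Bad and Casp8, by 1.01 and 1.00. Bbc3, the PUMA gene, was lower by FPKM, with 5.96, against 15.1, and did not hold.

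Germinal centre and plasma cell genes were few and mixed. Mef2b, a germinal centre transcription factor gene, was at 20.5 FPKM at 30 h, against 3.90 at 8 h. Bcl6, the germinal centre repressor, Myb and the J chain gene Igj were lower, at 7.70, 17.7 and 3.58, against 16.4, 43.3 and 13.2. Irf4, which acts in activation and plasma cell fate, was at 91.1, against 171, and was not counted (-0.90). Prdm1, a plasma cell regulator, was assembled at 8 h only, with 1.45 FPKM. The BAFF receptor family gene Tnfrsf13b, TACI, was counted higher, with 138 FPKM at 30 h, against 66.8 at 8 h.

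Some of the largest upward differences lie outside the lists. Ptpn18, a phosphatase gene, had the largest by FPKM among the named genes, with 209.6 at 30 h, against 6.97 at 8 h (4.72), but only 1.34 over exons. Pld4, an exonuclease of the phospholipase D family, was at 126 FPKM at 0 h, 11.8 at 8 h and 104 at 30 h. Pycard, the inflammasome adaptor, was at 53.2 at 30 h, against 5.07 at 8 h, with 3.16 by FPKM and 1.72 over exons. Fry, a gene known from the control of cell shape and spindles, was at 18.9, against 1.17. Downward, Trmt61a, a tRNA methyltransferase gene, was at 11.7, against 52.1, and Usp31 and Pydc4 at 3.38 and 6.66, against 16.8 and 31.1.

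Genes assembled in 1 of the 2 libraries could not enter the comparison. At 5 FPKM or more, 161 genes were assembled at 30 h only and 73 at 8 h only. Over exons 97 of the 161 were at least 1 higher at 30 h and 5 at least 1 lower, and 42 of the 73 were at least 1 lower and 2 at least 1 higher. The exon measure counts only assembled pieces, so a gene not assembled in a library tends to be low there by selection. No direction is therefore drawn from these splits or from the exon values below. Cell cycle genes were among the 30 h ones: Ccnb2, cyclin B2, was at 14.7 FPKM and Prc1, a spindle midzone protein gene, at 11.996, and over exons Prc1 stood at 10.8 at 30 h, against 0.147 at 8 h. Rad54l, of recombination repair, was at 16.5 over exons at 30 h, against 0.530 at 8 h. Prc1 and Rad54l each have an expressed gene within 1000 bases, whose reads can join theirs. Several clustered histone genes were also assembled at 30 h only, at 5.20 to 10.9 FPKM; most replication histone mRNAs lack the poly-A tail that this library method primes from.

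The same difference was taken in the cultures with anti-IgM and BAFF and with BAFF alone, pairs that share no library with the anti-IgM pair. With anti-IgM and BAFF 559 of 9875 genes were counted higher at 30 h (5.66%) and 681 lower (6.9%). With BAFF alone 358 of 10024 were higher (3.57%) and 413 lower (4.12%). Across genes the anti-IgM difference had a Pearson r of 0.57 and a Spearman rho of 0.563 with that of the combined culture (9638 genes), and 0.305 and 0.298 with that of BAFF (9650 genes). Genes are not independent replicates, and each difference rests on its own 2 libraries, which share mouse strain and processing with the others.

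Of the 410 genes higher by both measures with anti-IgM, 379 were compared in the combined pair, where 242 were counted higher, 0 lower, and 349 lay above 0. These 242 are 59.0% of the 410 and 43.3% of the 559 counted higher there. Over all 795 genes counted higher with anti-IgM, 721 were compared in the combined pair, where 290 were counted higher (36.5% of the 795 and 51.9% of the 559) and 24 lower. Of the 410 held genes 392 were compared in the BAFF pair, and 95 were counted higher, 23.2% of the 410 and 26.5% of the 358, with 8 lower. Over all 795 the BAFF pair had 126 counted higher (15.8% of the 795 and 35.2% of the 358) and 30 lower. Of the 252 genes lower by both measures, 164 were counted lower in the combined pair (65.1% of the 252 and 24.1% of the 681) and 31 in the BAFF pair (12.3% of the 252 and 7.51% of the 413), with 2 and 3 counted higher. Over all 533 counted lower, 212 were counted lower in the combined pair (39.8% of the 533 and 31.1% of the 681) and 14 higher, and 55 in the BAFF pair (10.3% of the 533 and 13.3% of the 413) and 14 higher. The difference between the stimuli was not tested.

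By list, the medians of the cell cycle groups lay above 0 in each pair. Mitosis genes had medians of 1.84 with anti-IgM, 1.58 with both and 1.04 with BAFF, and DNA replication genes 1.47, 1.33 and 0.65. Ribosome biogenesis genes had -0.95, -0.99 and -0.24, with 27, 29 and 1 counted lower. Ribosomal protein genes were at 0.41, 0.53 and 0.28. For B cell identity genes the medians were 0.73, 0.31 and 0.17, and for macrophage markers 0.79, 0.80 and 0.40.

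Rrm2 was at 30.7 FPKM with BAFF at 30 h, against 3.95 at 8 h, and at 52.1 with both at 30 h, against 6.21 at 8 h. Ccne1 was at 8.31 with BAFF at 30 h, against 8.53 at 8 h, and at 18.1 with both, against 4.09. E2f1 likewise had 6.93 with BAFF at 30 h, against 7.01 at 8 h, and neither gene was counted with BAFF. Myc was counted lower at 30 h in each pair, with differences of -2.08 with anti-IgM, -2.12 with both and -1.10 with BAFF. Nfkb2 differed by -1.14 with anti-IgM, -0.12 with both and -0.45 with BAFF, and stood at 183 FPKM at 30 h, against 198 at 8 h, where both were present. Cd38 and Csk were counted higher with anti-IgM by 2.39 and 2.41, against 0.96 and 1.35 with both and 1.27 and 0.16 with BAFF.

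**Figure D5:**
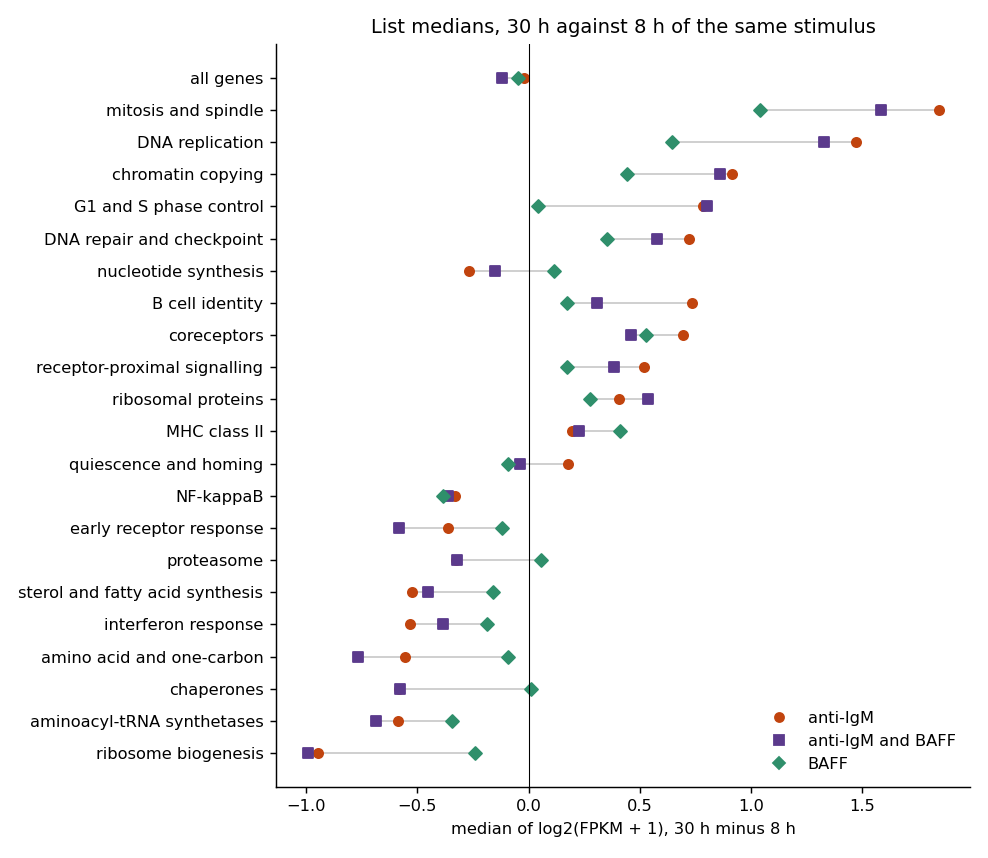
Each marker is the median of log2(FPKM + 1) at 30 h minus 8 h over the members of a list, for anti-IgM (circles), anti-IgM and BAFF (squares) and BAFF (diamonds), with no error bar because there is 1 library per condition. Circles and squares lie near each other for most lists, and the diamonds lie nearer 0 for mitosis, DNA replication and ribosome biogenesis.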

How the data were processed

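Total RNA of mouse B cells was reverse transcribed from poly-dT primers and made into 7 Illumina TruSeq libraries, per the labels' protocols. Per the submitters' processing notes CASAVA 1.8.2, TopHat2 2.0.5, Bowtie2 2.0.0.7, Cufflinks 2.0.2 and mm10 were used. The authors deposited transcripts assembled separately in each library, with FPKM and its interval in the attribute text of each transcript, and a merged gene model. Transcripts were named here by same-strand exon overlap with the merged model, and FPKM were summed per gene over transcripts of at least 300 bases. Reads were recovered from FPKM, length and the intervals, with a fit tolerance of 5%, and the intervals span 2 SD of the counting error.

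The gene lists (41 of biology and 9 of cell type markers), the comparison and the counting rule were chosen with earlier results of these data known. The genes named are the 12 largest differences in each direction among counted genes at 5 FPKM or more that held and had no other expressed gene within 1000 bases, up to 5 counted members per list and direction, and a set of genes fixed by name. Genes named outside that rule (Ccna2, Ccnb1, Aurkb, Mcm5, Mcm6, Pcna, Ncl, Npm1, and those assembled in 1 library only) were chosen after their values were seen. Some genes are not reported here. Of the genes named in the text, Bad, Bysl, Ccna2, Cd37, Cd74, Cdc45, Cdkn2d, Chaf1a, Ciita, E2f1, Eef1g, Gins2, H2-Oa, Haus3, Irf7, Itgb7, Lig1, Mat2a, Mxd4, Ncl, Nfkb2, Nop16, Rad51ap1, Tiparp and Utp18 have another expressed gene within 1000 bases. So do Ccnd3, Cd68, Eif4a1, Nfkbie, Prc1 and Rad54l, and overlapping reads cannot be told apart. The counting step was run on simulated reads with set changes. That simulation had no assembly step and no neighbouring genes, so it does not bear on errors from either. The alternatives tried were the pseudocount, the minimum FPKM, the scaling, the transcript length minimum, the most abundant transcript, reads over exons, genes not assembled set to 0, genes without neighbours, no interval and a smaller difference. Tables were computed in Python 3.11.15 with pandas 2.3.3 and numpy 2.4.6, and plots drawn with matplotlib 3.10.9.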

Additional observations from a re-analysis of the deposited data

Results flagged for a closer look

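Of the named genes, 10 were counted in opposite directions at 30 h minus 8 h with anti-IgM and in another pair of cultures, in 11 comparisons, and the difference between the pairs was not tested. All values are log2(FPKM + 1) at 30 h minus 8 h. Trim30a, of a family of near-identical neighbouring genes whose reads are uncertain, was the 1 that both measures show in both pairs: -1.69 with anti-IgM, against 1.16 with anti-IgM and BAFF, and -1.71 against 1.16 over exons.

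The other 9 did not hold over exons. Against anti-IgM and BAFF, Tyms had -1.82 with anti-IgM, against 2.64 (0.99 and 1.23 over exons). Slc7a11 had 1.20, against -1.21 (-1.12 and -1.55 over exons). Eif5a had 1.07, against -1.99 (-0.65 and -0.27 over exons). Rad50 had -1.10, against 1.30, Rfxank 1.07, against -1.25, and Cox7b -1.39, against 1.09.

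Rps15a had -1.87 with anti-IgM, against 1.70 with anti-IgM and BAFF and 2.17 with BAFF (1.86, 0.88 and 0.42 over exons). Against BAFF, Cblb had -1.15 with anti-IgM, against 1.57 (0.07 and 0.11 over exons). Tcf4 had 1.08, against -1.36 (0.89 and 0.40 over exons).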

How the results depend on the processing

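No paired analysis was possible because each condition has 1 library. The counts of 795 higher and 533 lower genes stayed within 1.5 times in 18 of 26 alternative counts. Rescaling each library to a sum of 1000000 gave 869 lower genes. Setting genes not assembled to 0 gave 1238 higher and 892 lower. Keeping genes with no expressed gene within 1000 bases gave 528 higher among the 6692 then compared. A difference of at least 0.58 gave 1701 higher and 1480 lower. Requiring reads over exons as well, an alternative added after seeing the data, gave 410 and 252. Of 469 alternative list medians 54 moved beyond the spread allowed. Of the alternative values of named genes 1756 kept their call, 63 lost the call, 2 gained one and 10 reversed, which means a changed call with the opposite sign. Genes not counted in either setting are among the 1756 whatever their sign, as Egr2 is over exons. Over exons the reversed differences were 0.0712 for Cblb, -0.65 for Eif5a, -0.12 for Ndufb2, 0.19 for Rad50, -0.0802 for Rfxank, 1.86 for Rps15a, -1.12 for Slc7a11 and 0.99 for Tyms. With transcripts of any length Brip1 was at -3.39, and with the most abundant transcript Egr2 was at -1.005. The cause was not tested. With 1 library per condition, variation between cultures or mice was not measured, and the intervals do not include it.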
